A study of Mus musculus with 48 samples.

Results

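The lung strain difference at time 2 was described from 6 of the 48 arrays of the series, 3 of A/J lung and 3 of C57BL/6J lung. These arrays were chosen by their titles, which name the tissue, strain and time of each sample. All 12422 probe sets other than the array's own controls were compared. A probe set is a group of short probes on the Affymetrix MG-U74Av2 array that reads 1 or more transcripts. Values are on the log2 scale, on which a difference of 1 is a 2-fold change.

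The series holds liver, heart, spleen and lung of both strains at 2 time points, with 3 arrays in each of 16 groups. Both groups used here were lungs of male mice aged 3 months of 2 inbred strains, A/J and C57BL/6J, and the labels name no treatment or engineered allele for either. The sources used here do not give the meaning of time 1 and time 2, the number of litters, or whether a mouse gave more than 1 tissue. The labels call the 3 samples of a group biological replicates from littermates, so p-values measure the spread between these animals, and litter and strain cannot be told apart.

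A/J and C57BL/6J mice are often set against each other in lung research, since A/J airways narrow strongly to inhaled constrictors and A/J lungs readily form tumours, whereas C57BL/6J mice resist both. Interferons, which are cytokines of infection and inflammation, induce guanylate-binding proteins and immunity-related GTPases that act against microbes inside cells, and they raise the machinery of antigen presentation. Glucocorticoid hormones act in the lung through the receptor Nr3c1, which raises genes such as Fkbp5 and Zbtb16 and is the target of inhaled steroids.

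The labelled tissue was checked first. Sftpc, the surfactant protein of alveolar type II cells, read 14.54, 14.51 and 14.52 in A/J and 14.52, 14.47 and 14.51 in C57BL/6J, against 8.23 to 9.78 in the other tissues at time 2. It stood close to the highest value of these arrays (14.57 to 14.61), as did Ager of alveolar type I cells and Scgb1a1 of secretory airway cells, so that strain differences of such transcripts could not be read. Array medians lay between 8.89 and 8.95, and pairs of arrays of 1 strain correlated at 0.99 over all probe sets. The Gapdh control, whose signal at the 3′ end over that at the 5′ end is a sign of RNA integrity, gave 1.96, 1.36 and 1.54 in A/J and 1.37, 1.36 and 1.05 in C57BL/6J. In liver, heart and spleen at time 2 it lay between 0.08 and 0.90. A/J replicate 1 was the highest and C57BL/6J replicate 3 the lowest of the 6 lungs.

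Across the array, 442 probe sets (3.56%) differed between the strains, where a probe set was called at an adjusted p below 0.05 by limma, with Benjamini-Hochberg adjustment across the array. Of these, 280 (2.25%) were higher in A/J and 162 (1.3%) were higher in C57BL/6J. At least 2-fold differences were called for 58 probe sets (0.467%), 30 in favour of A/J (0.242%) and 28 in favour of C57BL/6J (0.225%). The values of the strains did not overlap in 3520 probe sets (28.3%). The count moved with each array. It was 190, 237 and 220 without A/J replicates 1, 2 and 3, and 780, 234 and 211 without C57BL/6J replicates 1, 2 and 3. With the Gapdh value of each array as a covariate, an alternative added after seeing the data, 102 probe sets passed, 48 higher and 54 lower.

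The 12 genes with the largest difference in each direction were taken among called probe sets without overlap between the strains. For these genes the lack of overlap was therefore part of the choice and not a separate result. The largest difference in favour of A/J was that of Ifi204, an interferon-induced sensor of DNA, which read 10.64, 10.53 and 10.28 in A/J and 8.09, 7.64 and 8.08 in C57BL/6J. Every A/J lung lay above every C57BL/6J lung, and the difference was 2.55 (SE 0.14, 5.84-fold, adjusted p = 4.58e-06). The C57BL/6J lungs stood at the level of liver, heart and spleen (7.91 to 8.73), and the fold is read as a minimum. Of the other Ifi204 probe sets, 1 was also higher in A/J (0.64) and 1 gave -0.10 and did not pass. A probe set of H2-D1, a classical class I histocompatibility gene, read 12.69, 12.93 and 12.56 in A/J and 10.74, 10.54 and 10.60 in C57BL/6J. The groups lay far apart (2.097, SE 0.11, 4.28-fold, adjusted p = 4.36e-06), while the other H2-D1 sets, at -0.05 and 0.15, were not called. The strains carry different H2 haplotypes, and whether the probes match both strains' transcripts equally was not tested. Glo1, glyoxalase 1, which clears methylglyoxal and lies in a segment known to be duplicated in A/J, read 12.37, 12.12 and 12.29 in A/J and 10.52, 10.04 and 10.32 in C57BL/6J. The difference was 1.97 (SE 0.13, 3.92-fold, adjusted p = 1.87e-05) with no overlap, and the other Glo1 probe set was higher by 1.69.

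Baiap2l1, an adaptor that links membranes to actin, had a small spread, at 11.15, 11.04 and 11.04 in A/J and 9.24, 9.19 and 9.22 in C57BL/6J. Its difference of 1.86 (SE 0.09, adjusted p = 4.36e-06) was many times the range of either strain. Gnb1, a beta subunit of heterotrimeric G proteins, read 9.35, 9.53 and 9.41 in A/J and 8.05, 7.97 and 7.99 in C57BL/6J. The strains did not overlap (1.43, SE 0.09, adjusted p = 1.72e-05), and 1 of its other probe sets was called as well. Alad, an enzyme of haem synthesis, read 11.62, 11.49 and 11.53 in A/J and 10.24, 10.06 and 10.32 in C57BL/6J, a difference of 1.34 (SE 0.10, adjusted p = 4.48e-05). Gatm, which makes the precursor of creatine, read 9.88, 9.70 and 9.67 in A/J and 8.32, 8.70 and 8.32 in C57BL/6J and was 1.302 higher in A/J (adjusted p = 0.000217). Ankrd1, a mechanically responsive nuclear protein of muscle and other cells, read 10.41, 10.32 and 10.68 in A/J and 8.67, 8.67 and 9.53 in C57BL/6J. A/J was higher by 1.51 (SE 0.20, adjusted p = 0.00307), although C57BL/6J replicate 3 stood apart from the rest of its strain. Ets1, a transcription factor of lymphocytes and endothelium, read 10.09, 9.84 and 9.56 in A/J and 8.66, 8.12 and 8.51 in C57BL/6J and was 1.40 higher in A/J (adjusted p = 0.00117), where its other probe set gave 0.31 and did not pass. The remaining genes of the 12 with the largest A/J excess were Gbp2b, Igha and Ptprc, described with their groups.

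On the C57BL/6J side, Ctsc and Gas5 stood out. Ctsc, cathepsin C, which activates the serine proteases of neutrophils and mast cells, read 6.47, 6.75 and 6.69 in A/J and 9.89, 9.21 and 9.70 in C57BL/6J on the probe set that differed most. The strains lay 7.83-fold apart (-2.97, SE 0.16, adjusted p = 4.36e-06). The A/J values were low for the array and near the lowest of liver, heart and spleen of both strains (6.46). The fold is that of this probe set and not of the gene, since a brighter Ctsc set was called higher in A/J (0.82), as described below. Gas5, a non-coding RNA that hosts small nucleolar RNAs, read 8.98, 8.25 and 8.38 in A/J and 11.65, 11.02 and 11.34 in C57BL/6J, a 6.94-fold difference (-2.80, SE 0.19, adjusted p = 2.87e-05). The other Gas5 sets, at 0.06 and -0.32, were not called. Snhg6, another host of small nucleolar RNAs, read 8.35, 8.35 and 8.12 in A/J and 9.77, 9.61 and 9.58 in C57BL/6J and was 1.38 lower in A/J (SE 0.10, adjusted p = 4.48e-05). On these sets both host genes read lower in every A/J lung than in every C57BL/6J lung. Another Snhg6 set gave -0.10 and did not pass.

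Transcription factors and signalling genes followed. Runx1, a factor of blood and epithelial cells, read 6.98, 7.34 and 7.20 in A/J and 8.45, 8.55 and 8.60 in C57BL/6J (-1.36, SE 0.11, adjusted p = 7.4e-05). Sox11, a factor best known from development, read 8.31, 8.37 and 8.20 in A/J and 9.39, 9.88 and 9.41 in C57BL/6J, and all A/J values lay below all C57BL/6J values (-1.27, SE 0.13, adjusted p = 0.000607). Rgcc, a regulator of the cell cycle that responds to complement, read 10.27, 10.26 and 10.22 in A/J and 11.78, 11.76 and 11.39 in C57BL/6J. The A/J lungs were nearly alike and all lay below the C57BL/6J lungs (-1.39, SE 0.11, adjusted p = 8.9e-05). Qsox1, a sulfhydryl oxidase, read 9.50, 9.39 and 9.26 in A/J and 11.11, 10.65 and 10.83 in C57BL/6J (-1.48, adjusted p = 9.63e-05). Of its other probe sets, 1 was also lower in A/J and 1 gave -0.08 and did not pass. Lcn2, the iron-sequestering lipocalin of neutrophils and inflamed epithelium, read 8.37, 8.78 and 8.77 in A/J and 9.81, 9.24 and 10.58 in C57BL/6J on the set that differed most (-1.24, adjusted p = 0.0328), and its call was lost without A/J replicate 1, 2 or 3.

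**Figure D1:**
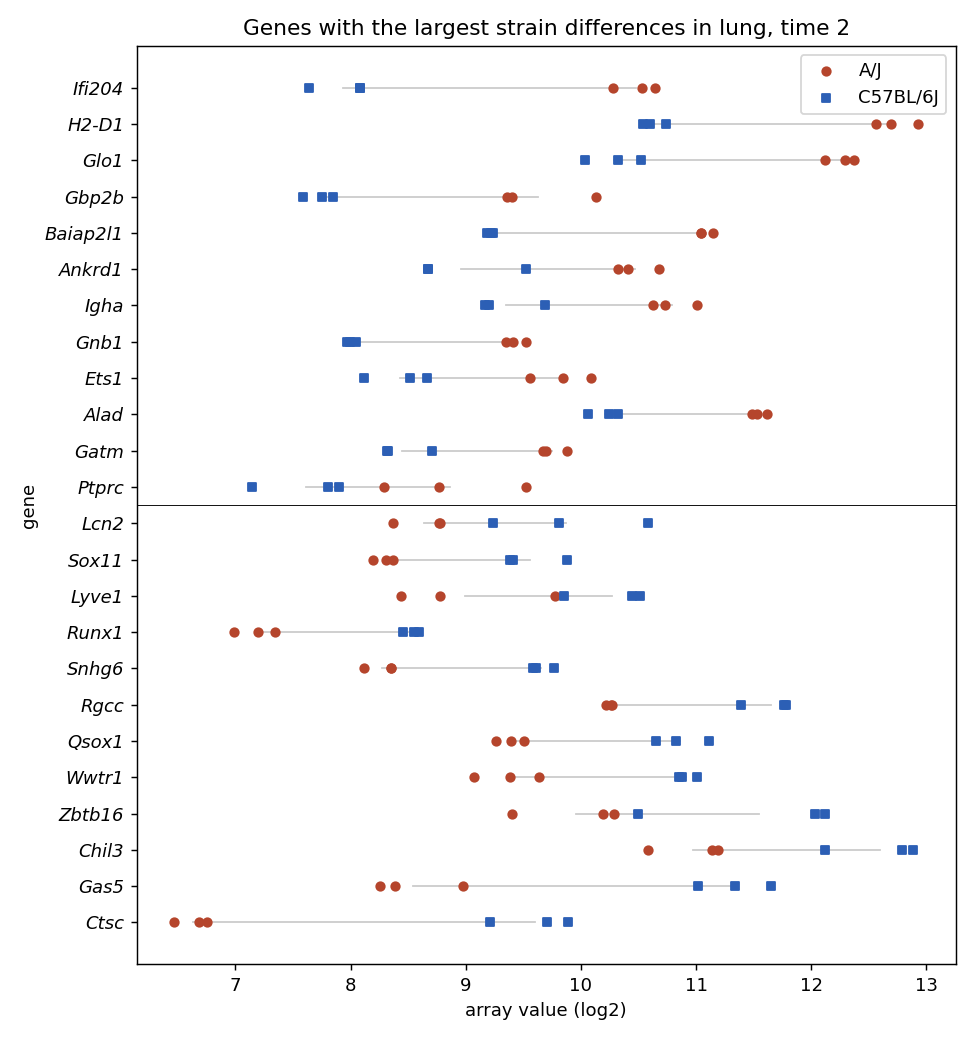
Log2 array values (horizontal axis) of the 12 genes with the largest excess in A/J (above the line) and the 12 with the largest excess in C57BL/6J (below it), in the 6 lungs of time 2. Circles are A/J lungs, squares are C57BL/6J lungs, and the grey bar joins the 2 group means, as in Ifi204, where A/J lay between 10.28 and 10.64 and C57BL/6J between 7.64 and 8.09.

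Probe sets of 1 gene did not always move together. Of 2073 genes with several probe sets, 144 had at least 1 called, 9 had all sets called in the same direction and 3, Ctsc, Wwtr1 and Prdx2, had sets called in opposite directions. Beside the Ctsc set described above, another set of the gene was lower in A/J by 0.56 and the third was higher in A/J, at 10.69, 10.62 and 10.63 in A/J and 10.26, 9.42 and 9.79 in C57BL/6J (0.82, adjusted p = 0.0287). The higher call was lost without A/J replicate 1, 2 or 3 or C57BL/6J replicate 2 or 3, so that at time 2 it depended on single arrays. The call of the second lower set was lost without A/J replicate 1 or 2 or C57BL/6J replicate 3. At time 1 the higher set was called in the same direction (0.54, adjusted p = 0.00579). The first (-2.09) and second (-0.72) lower sets were called lower there as well. Wwtr1, the transcriptional co-activator TAZ of the Hippo pathway, read 9.07, 9.63 and 9.38 in A/J and 10.85, 10.88 and 11.01 in C57BL/6J on 1 set (-1.55, SE 0.13). The other set read 10.91, 11.07 and 10.90 in A/J and 10.26, 9.71 and 10.08 in C57BL/6J (0.95, SE 0.13). Neither pair of groups overlapped, so the direction of Wwtr1 depends on the probe set. Prdx2, a peroxiredoxin, was lower in A/J by 1.17 on 1 set, higher by 0.51 on another (lost without A/J replicate 1, 2 or 3 or C57BL/6J replicate 2 or 3), and not called on the third. Among genes described with their lists, sets other than the one read there had the opposite sign and did not pass for Cav1 (-0.28), Myl4 (-0.25), Myh7 (-0.18), Cat (-0.18), Pmp22 (-0.42), Fabp1 (-0.14), F2r (-0.36 and -0.28), Sult1a1 (0.07) and Car4 (-0.0025, where the set read there gave 0.55), and for 1 of 2 further sets of Scd1 (-0.28). Sets of the same sign that did not pass were found, among others, for Cdkn1a (-0.39), Pttg1 (-0.35), Plpp1 (-0.31), Hspb8 (-0.25), Sox11 (-0.35), Snhg6 (-0.10) and Lcn2 (-0.27). Some sets other than the one read for the gene's list were called higher in A/J and held without each array. Among them were those of H2-K1 (0.70), Ighm (1.14), Tie1 (0.72), Pdia6 (0.62), an endoplasmic reticulum chaperone, and F7, coagulation factor VII (0.64). With the Gapdh covariate the sets of Tie1, Pdia6 and F7 did not pass (adjusted p = 0.0645, 0.0781 and 0.0735). The cause of these disagreements was not tested.

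Genes induced by interferon were examined by list, with each gene read by its probe set of highest mean in these lungs. Counts of called genes in this and later lists stand beside 2.25% called higher and 1.3% called lower over all probe sets. Among 9 measured interferon-inducible GTPases, 1 was called, Gbp2b, a guanylate-binding protein, with 9.40, 10.13 and 9.36 in A/J and 7.85, 7.75 and 7.59 in C57BL/6J. All A/J lungs lay above all C57BL/6J lungs (1.90, SE 0.18, 3.74-fold, adjusted p = 0.000254). The list's median difference was 0.48, against -0.04 over all probe sets, and 8 of the 9 genes had a positive difference. The same list had a median of -0.43 at time 1, with 1 gene called higher and 3 called lower in A/J. All 9 genes were highest in A/J replicate 2. The mean level of the list was 9.59, 10.24 and 9.31 in A/J and 9.21, 9.20 and 9.08 in C57BL/6J, so that this lung stood apart. Without it the median was 0.30, and without A/J replicate 3 or C57BL/6J replicate 1 the count called was 4 and 2, respectively.

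Promoter sequences are printed for 4 of these GTPase genes because the list varied by animal as well as by strain and many interferon-induced genes carry a known type of regulatory element. The windows are the 250 bases before the gene start, on the gene's strand, from RefSeq on build GRCm38.p6, which represents C57BL/6J. Capitals mark matches to GAAANNGAAA on either strand (TTTCNNTTTC when read from the other), the core of the interferon-stimulated response element.
Gbp2b, chr3:142594597-142594846, plus strand: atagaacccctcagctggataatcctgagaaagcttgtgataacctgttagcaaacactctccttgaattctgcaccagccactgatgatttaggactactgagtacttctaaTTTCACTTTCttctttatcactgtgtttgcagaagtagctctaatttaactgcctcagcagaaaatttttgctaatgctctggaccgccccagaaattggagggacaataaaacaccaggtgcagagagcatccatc
Gbp7, chr3:142530086-142530335, plus strand: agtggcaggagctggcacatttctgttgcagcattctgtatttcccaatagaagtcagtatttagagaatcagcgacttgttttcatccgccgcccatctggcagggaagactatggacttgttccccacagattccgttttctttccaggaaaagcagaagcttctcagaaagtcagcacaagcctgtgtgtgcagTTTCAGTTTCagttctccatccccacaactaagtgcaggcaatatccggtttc
Irgm1, chr11:48871421-48871670, minus strand: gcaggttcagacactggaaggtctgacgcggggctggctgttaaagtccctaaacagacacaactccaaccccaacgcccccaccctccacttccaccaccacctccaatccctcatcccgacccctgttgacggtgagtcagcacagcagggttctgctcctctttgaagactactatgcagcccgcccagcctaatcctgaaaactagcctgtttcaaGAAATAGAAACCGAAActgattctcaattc
Ifi47, chr11:49076337-49076586, plus strand: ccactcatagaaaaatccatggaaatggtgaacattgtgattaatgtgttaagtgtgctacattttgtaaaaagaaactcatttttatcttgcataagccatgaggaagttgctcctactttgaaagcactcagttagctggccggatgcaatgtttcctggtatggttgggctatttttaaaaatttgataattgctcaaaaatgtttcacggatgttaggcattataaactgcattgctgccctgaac
Of the 9 genes, 8 had a window and 7 of those held a match, as did 936 of 27025 genes (3.46%) in RefSeq's table. The match of Gbp2b lies 137 bases before the start and that of Gbp7 53 bases before it. Irgm1 holds 2 overlapping matches, and Ifi47 holds none in this window, which says only that these letters are absent there. A match is a description of the sequence and not evidence of binding.

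**Figure D2:**
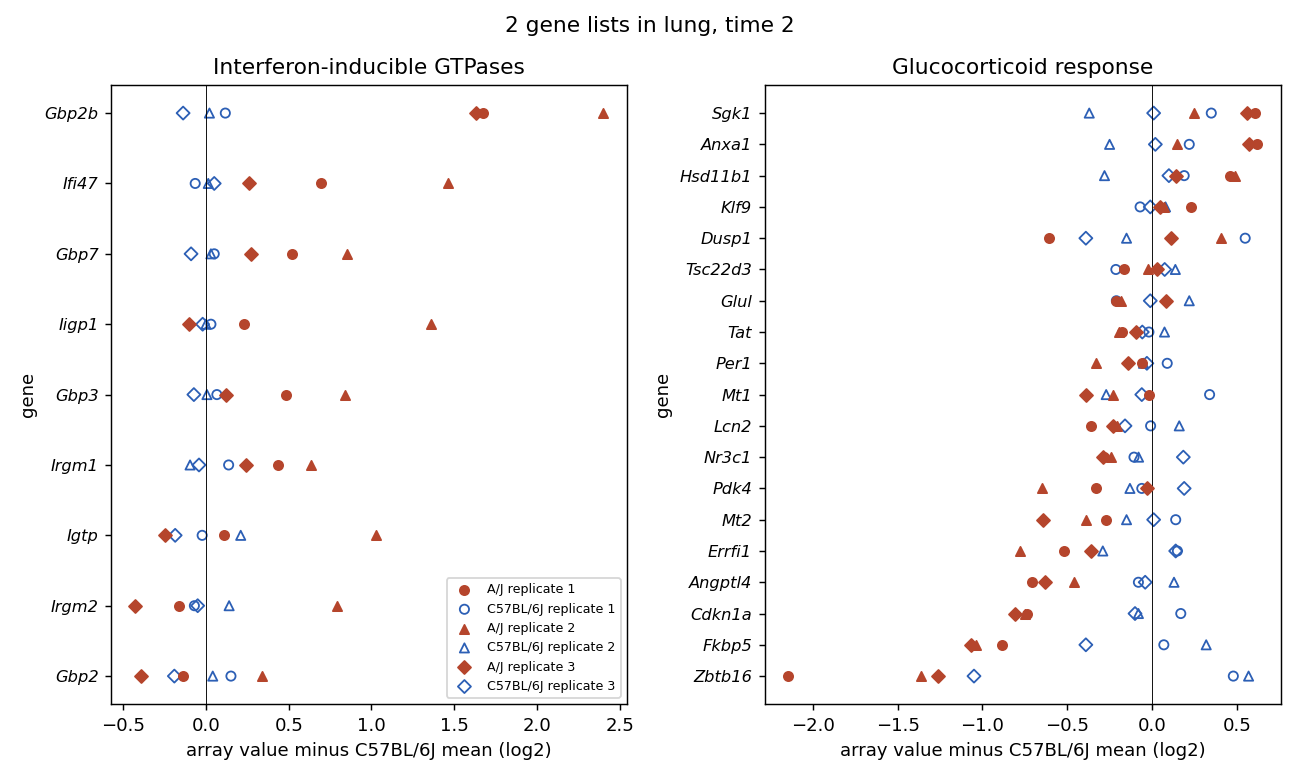
Array values less the C57BL/6J mean of each gene (log2, horizontal axis) in the 6 lungs, for the interferon-inducible GTPases and for the glucocorticoid response list. Filled symbols are A/J and open symbols C57BL/6J, with 1 shape per replicate, and the A/J replicate 2 triangles are the highest value of all 9 GTPases.

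The same animal stood out in genes of the list with no call. Ifi47 read 9.02, 9.79 and 8.58 in A/J and 8.26, 8.34 and 8.38 in C57BL/6J, and Iigp1 read 10.78, 11.91 and 10.45 in A/J and 10.58, 10.55 and 10.53 in C57BL/6J. For Iigp1 a single A/J lung stood high, and the other A/J lungs overlapped the C57BL/6J range. Gbp7, at 10.63, 10.96 and 10.38 in A/J and 10.16, 10.14 and 10.02 in C57BL/6J, had no overlap and an adjusted p of 0.0527. The wider type I interferon list of 28 genes had 2 members higher, Ifi204 and its neighbour Ifi202b (6.08, 5.89 and 5.88 in A/J and 5.41, 5.37 and 5.25 in C57BL/6J), and 1 lower. Ifi202b lies among the dimmest values of the array, and its difference was 0.61 (adjusted p = 0.00794). The lower member was Rsad2, the antiviral enzyme viperin (-0.47, adjusted p = 0.0312), whose call was lost without A/J replicate 1 or 3 or C57BL/6J replicate 2 or 3. The median of this list was 0.00207, and its other 25 measured members did not pass.

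Antigen presentation genes were mostly not called. Of 14 class II and related genes, 1 was higher in A/J, Ctss, cathepsin S, the protease that trims the invariant chain, at 12.87, 12.76 and 12.71 in A/J and 12.15, 11.48 and 12.03 in C57BL/6J. The strains did not overlap (0.90, SE 0.15, adjusted p = 0.0111), and the call held without each array in turn. With the Gapdh covariate Ctss did not pass (adjusted p = 0.106). The class II chain H2-Aa gave 0.43, the invariant chain Cd74 0.38, H2-Ab1 0.11 and H2-Eb1 -0.17, none of them called. The list's median was 0.16 at time 2 and -0.34 at time 1, when 5 of the 14 were lower in A/J. None of 18 class I and peptide loading genes was called (9 at an unadjusted p below 0.05) on the set of highest mean, with a median of 0.14 at time 2 and -0.20 at time 1. Read by the mean of its probe sets, 2 genes of this list were higher in A/J. The H2-D1 set with the large difference described above is not the one read here, nor is a set of the class I gene H2-K1 that was higher by 0.70 (adjusted p = 0.00598), while the other H2-K1 sets gave 0.01 and 0.20. In that list the immunoproteasome subunits Psmb10 (0.42, adjusted p = 0.0544) and Psmb9 (0.68, adjusted p = 0.0587) came closest. Without A/J replicate 2 the class II median was 0.04 and the class I median 0.08. Without A/J replicate 3 or C57BL/6J replicate 1, 1 class I gene was called.

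B cell markers were highest in 1 animal. By limma 0 of 19 B cell genes were called and 10 had an unadjusted p below 0.05, as had 23% of all probe sets. A total of 17 had a positive difference and the median was 0.25. In 16 of the 19 the highest lung was A/J replicate 1, and the mean level of the list was 9.55, 9.26 and 9.01 in A/J and 8.96, 8.97 and 9.06 in C57BL/6J. Without that lung the median was 0.15, and without A/J replicate 3, 3 genes were called higher. Without C57BL/6J replicate 1, 1 was called lower and none higher. In whole lung, more cells of a type and more RNA per cell cannot be told apart. Ptprc, the leukocyte surface phosphatase CD45, was also highest in that lung on the probe set that differed, at 9.53, 8.77 and 8.29 in A/J and 7.80, 7.14 and 7.90 in C57BL/6J (1.25, adjusted p = 0.0363). Its other sets gave -0.05 and 0.02 and did not pass, and its call was lost without A/J replicate 1 or 2 or C57BL/6J replicate 2. None of 21 T cell genes or of 17 natural killer genes was called (1 and 2 at an unadjusted p below 0.05), with medians of 0.01 and -0.08.

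Of 10 plasma cell and immunoglobulin genes, 1 was called, Igha, which encodes the IgA heavy chain, on 1 probe set, at 10.73, 11.01 and 10.63 in A/J and 9.69, 9.20 and 9.17 in C57BL/6J. All A/J lungs were higher (1.43, SE 0.15, 2.7-fold, adjusted p = 0.000607), as at time 1 (2.40), while the other Igha sets, at 0.03 and -0.19, were not called. Ighm, the IgM heavy chain, did not pass on the set read for the list (0.33). Of the other 15 sets named Ighm, 1 was called, at 10.26, 11.02 and 10.49 in A/J and 9.59, 9.24 and 9.53 in C57BL/6J. All A/J lungs were higher (1.14, SE 0.17, adjusted p = 0.00616), as at time 1 (2.59), and the call held without each array. Another, at 10.83, 9.89 and 8.94 in A/J and 8.81, 8.49 and 9.22 in C57BL/6J, overlapped between the strains (1.05, adjusted p = 0.134) and was lower in A/J at time 1 (-1.03). Jchain, which joins IgA dimers, gave 0.52 (adjusted p = 0.0782), which did not pass. Without A/J replicate 3 or C57BL/6J replicate 1, 2 genes of the list were called higher.

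Macrophage genes were called in both directions. Of 25 measured, Ctss and Ccl6 were higher in A/J, and Chil3 and Mpeg1 were lower, with a median of 0.06. The balance moved with single arrays. Without C57BL/6J replicate 1, 4 were higher and 2 lower, and without C57BL/6J replicate 2, 1 was higher and 4 lower. Without A/J replicate 1 or 2, 1 was called in each direction, without A/J replicate 3 or C57BL/6J replicate 3, 2 were higher and 1 lower, and with the Gapdh covariate 1 was lower and none higher. Chil3, the chitinase-like protein Ym1 made by alveolar macrophages, read 11.19, 11.14 and 10.58 in A/J and 12.79, 12.12 and 12.88 in C57BL/6J. The strains did not overlap (-1.63, SE 0.21, 3.09-fold, adjusted p = 0.00215), and the call held without each array. Mpeg1, the pore-forming perforin-2, was 0.56 lower in A/J (adjusted p = 0.0349, lost without A/J replicate 1, 2 or 3 or C57BL/6J replicate 3). The chemokine Ccl6 was 0.57 higher (adjusted p = 0.0319, lost without A/J replicate 1 or 2 or C57BL/6J replicate 2). Marco, a scavenger receptor of alveolar macrophages, overlapped between the strains at 8.57, 8.16 and 8.13 in A/J and 8.04, 7.80 and 8.37 in C57BL/6J.

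Of 16 neutrophil genes, Fpr2, a formyl peptide receptor, was higher in A/J at 8.998, 8.80 and 8.52 in A/J and 7.89, 7.17 and 8.004 in C57BL/6J (1.09, adjusted p = 0.0153, lost without A/J replicate 2). Camp, the antimicrobial peptide cathelicidin, was lower by 0.59 (adjusted p = 0.0414, lost without A/J replicate 1 or 3 or C57BL/6J replicate 1 or 3). The list's median was -0.27, and only 2 of its 16 genes, Fpr2 among them, had a positive difference.

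Among 37 chemokines and receptors, 3 were higher in A/J and 1 was lower. Cxcr4, the receptor of CXCL12 that holds leukocytes and progenitors in tissue, read 9.81, 9.78 and 9.79 in A/J and 8.898, 8.34 and 8.75 in C57BL/6J, and its ligand Cxcl12 read 11.48, 11.40 and 11.62 in A/J and 10.39, 10.44 and 10.74 in C57BL/6J. In both, every A/J lung lay above every C57BL/6J lung, by 1.13 (SE 0.13, adjusted p = 0.00122) and 0.97 (SE 0.11, adjusted p = 0.00123). The other 2 Cxcl12 probe sets were also called higher, by 0.59 and 0.51. Ccl6 was the last gene of that direction. Cxcl14, an epithelial chemokine, read 7.91, 7.87 and 7.84 in A/J and 9.45, 8.54 and 9.11 in C57BL/6J and was lower in A/J (-1.16, SE 0.18, adjusted p = 0.00769). The calls of Cxcr4, Cxcl12 and Cxcl14 held without each array in turn. Cxcl14 did not pass with the Gapdh covariate (adjusted p = 0.0705), while Cxcr4 and the Cxcl12 set read for the list did. Of 38 interleukin and allergic airway genes, Ptgs2 (0.59) and Il18 (0.46) were higher and Chil3 was lower. The Ptgs2 call was lost without A/J replicate 1, 2 or 3 or C57BL/6J replicate 3, and that of Il18 without A/J replicate 1 or 2 or C57BL/6J replicate 1, 2 or 3. In that list 2 genes were lower and none higher without C57BL/6J replicate 3. None of 33 receptors and enzymes of airway tone was called (4 at an unadjusted p below 0.05).

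Epithelial genes were read by cell type, beside 2.25% called higher and 1.3% called lower over all probe sets. Of 12 measured alveolar type II genes, 3 were higher in A/J. Lpcat1, which makes surfactant phosphatidylcholine, read 11.37, 11.55 and 11.42 in A/J and 10.86, 10.69 and 10.97 in C57BL/6J (0.61, SE 0.10, adjusted p = 0.0102) with no overlap and a call that held without each array. Muc1, a membrane mucin, was higher by 0.48 and Scd1, a fatty acid desaturase also listed for adipocytes, by 0.64, and these calls were lost without A/J replicate 1, 2 or 3 or C57BL/6J replicate 2 and without A/J replicate 1 or 3 or C57BL/6J replicate 2. The list's median was 0.29, and in 9 of the 12 genes the lowest lung was C57BL/6J replicate 2. Without it 1 gene was called and the median was 0.16, and without C57BL/6J replicate 1, 5 were higher and 1 lower. After quantile normalization 1 was higher and 1 lower, and with the Gapdh covariate 1 was higher. Of 7 alveolar type I genes, Cav1, the coat protein of caveolae, was higher by 0.39 (lost without A/J replicate 1, 2 or 3 or C57BL/6J replicate 2 or 3). Hopx, a homeodomain protein of alveolar type I and heart muscle cells, read 12.35, 12.10 and 12.29 in A/J and 12.80, 12.77 and 12.74 in C57BL/6J and was lower (-0.53, adjusted p = 0.0153). It was lost without A/J replicate 2 or C57BL/6J replicate 3. Of 10 secretory airway genes Selenbp1 alone was called (-0.52, adjusted p = 0.0129, lost without A/J replicate 3), and of 8 ciliated cell genes none was (1 at an unadjusted p below 0.05), with a median of -0.17.

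In the vessel wall, 4 of 28 endothelial genes were higher in A/J and 2 were lower, where 2.25% and 1.3% of all probe sets were. Car4, a carbonic anhydrase of lung capillaries, read 10.77, 10.81 and 10.79 in A/J and 10.16, 10.30 and 10.26 in C57BL/6J (0.55, SE 0.09, adjusted p = 0.00816), and its call held without each array. Kdr, a receptor of VEGF, was higher by 0.53 (lost without A/J replicate 1), as were the junction protein Cldn5 (0.57, lost without A/J replicate 1 or 2 or C57BL/6J replicate 2 or 3) and the receptor Tie1 (0.50, lost without A/J replicate 1 or 2 or C57BL/6J replicate 2). Another Tie1 set, not the one read for the list, was higher by 0.72 (adjusted p = 0.0038) with no overlap, and its call held without each array. That set did not pass with the Gapdh covariate (adjusted p = 0.0645). Lyve1, a hyaluronan receptor of lymphatic vessels and some macrophages, read 8.44, 9.77 and 8.78 in A/J and 10.44, 10.51 and 9.85 in C57BL/6J. A/J replicate 2 came close to C57BL/6J replicate 3, and the call (-1.27, adjusted p = 0.04) was lost without A/J replicate 1 or 3 or C57BL/6J replicate 1 or 2. Vwf, von Willebrand factor, was lower by 0.48 (lost without A/J replicate 2 or 3 or C57BL/6J replicate 1, 2 or 3). The general endothelial genes Pecam1 (-0.21) and Cdh5 (0.25) did not pass. With each array centred on its median the 2 lower genes did not pass, and with the Gapdh covariate none of the 28 did. The Gapdh value overlapped between the strains only in that A/J replicate 2 (1.36) lay just below C57BL/6J replicate 1 (1.37). The other A/J lungs lay above every C57BL/6J lung, so the covariate and the strain cannot be cleanly told apart.

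Among 37 fibroblast and matrix genes, Mfap4, a protein of elastic fibres, was higher in A/J (10.70, 10.86 and 10.99 in A/J and 10.28, 10.10 and 10.13 in C57BL/6J, difference 0.68, adjusted p = 0.00599) and held without each array, although another probe set gave -0.20 and did not pass. Timp2, an inhibitor of metalloproteinases, was lower (-0.74, lost without A/J replicate 3 or C57BL/6J replicate 2 or 3). Igfbp6, which binds insulin-like growth factors, was the 1 called gene of 9 mesothelial ones. It read 12.62, 12.28 and 12.17 in A/J and 13.39, 13.50 and 13.19 in C57BL/6J, with no overlap (-1.003, SE 0.13, adjusted p = 0.00232). None of 13 smooth muscle genes was called (3 at an unadjusted p below 0.05). Gap43 (0.67) and Pmp22 (0.65), of 12 nerve and glia genes, were higher, the latter lost without A/J replicate 1, 2 or 3. Of 13 squamous epithelium genes, Sfn, the stratifin of epithelial cells, was lower (-0.60, SE 0.10, adjusted p = 0.0102).

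Mouse pulmonary veins carry a sleeve of heart muscle, and lung samples can hold it. Of 22 cardiac muscle genes 3 were higher in A/J. Myl7, the atrial myosin light chain, read 12.31, 12.12 and 12.41 in A/J and 11.23, 11.74 and 11.16 in C57BL/6J, with all A/J lungs higher (0.90, SE 0.15, adjusted p = 0.00953). Myl4, another atrial light chain, was higher by 0.86 and a Myh7 probe set, of a heavy chain of slow and cardiac muscle, by 1.08. The 3 calls held without each array. The rest of the list did not move with them. Myh6 read 10.29, 9.82 and 10.17 in A/J and 9.41, 9.88 and 10.64 in C57BL/6J, and 16 of the 22 genes were highest in C57BL/6J replicate 3. The mean level of the list was 9.47, 9.55 and 9.85 in A/J and 9.14, 9.36 and 10.20 in C57BL/6J, and its median was -0.08 with that lung and 0.28 without it, when 5 genes were called. With the Gapdh covariate 1 gene, Myh7, was called. The part of cardiac tissue in these values was not tested. The skeletal muscle actin Acta1 read 11.53, 9.33 and 9.96 in A/J and 8.29, 8.23 and 9.08 in C57BL/6J and did not pass (adjusted p = 0.057). None of the 17 skeletal muscle genes did (1 at an unadjusted p below 0.05).

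Several targets of glucocorticoid hormones were lower in A/J. Of 19 measured genes of this list, 0 were higher and 4 were lower in A/J, where 1.3% of all probe sets were lower, with a median of -0.21 and 4 positive differences. The list was chosen with earlier results of these data known, so these counts describe it and do not test it. Cdkn1a, an inhibitor of the cell cycle also induced by p53, read 10.72, 10.71 and 10.65 in A/J and 11.63, 11.38 and 11.36 in C57BL/6J, and the strains did not overlap (-0.76, SE 0.10, adjusted p = 0.00252). Fkbp5, a co-chaperone that restrains the receptor, read 9.53, 9.38 and 9.35 in A/J and 10.49, 10.74 and 10.03 in C57BL/6J and was lower in every A/J lung (-0.9964, SE 0.15, adjusted p = 0.00711). Angptl4, an inhibitor of lipoprotein lipase, read 9.98, 10.23 and 10.06 in A/J and 10.61, 10.82 and 10.65 in C57BL/6J (-0.60, SE 0.10, adjusted p = 0.011). The call was lost without A/J replicate 3, and the other Angptl4 sets, at -0.29, -0.06 and -0.27, were not called. Zbtb16, the transcription factor PLZF, read 9.40, 10.19 and 10.29 in A/J and 12.03, 12.12 and 10.50 in C57BL/6J. C57BL/6J replicate 3 lay just above the highest A/J lung, and the call (-1.59, adjusted p = 0.0452) was lost without A/J replicate 1, 2 or 3 or C57BL/6J replicate 1 or 2. Another Zbtb16 set gave -0.26 and did not pass.

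Other targets of the hormone did not pass. Tsc22d3, the leucine zipper GILZ, gave -0.05, Per1 -0.18, Dusp1 -0.03, and Sgk1 0.48. The receptor gene Nr3c1 gave -0.27. The count of lower genes was 2 without A/J replicate 3 and 2 with the Gapdh covariate, and between 3 and 4 without any other single array. Without C57BL/6J replicate 1, 1 gene was called higher. At time 1 the list's median was 0.09, with 15 positive differences. In liver, heart and spleen at time 2 it was -0.25, -0.14 and -0.06.

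Of 43 glutathione and antioxidant genes, 5 were higher in A/J and 1 was lower. Beside Glo1 and the Prdx2 set named above, Nnt, the mitochondrial transhydrogenase that carries a known deletion in C57BL/6J, read 9.93, 10.03 and 10.05 in A/J and 9.02, 9.17 and 9.38 in C57BL/6J. The strains did not overlap (0.81, SE 0.11, adjusted p = 0.00252). Cat, catalase, was higher by 0.67 (lost without C57BL/6J replicate 3) and Gstt1, a glutathione transferase, by 0.53 (lost without A/J replicate 2 or C57BL/6J replicate 2 or 3). Gsto1, another transferase, read 10.87, 11.01 and 10.86 in A/J and 11.82, 11.54 and 12.02 in C57BL/6J and was lower in every A/J lung (-0.88, SE 0.12, adjusted p = 0.00366). The count of higher genes was 2 without C57BL/6J replicate 3, 3 without A/J replicate 2 or C57BL/6J replicate 2, and 7 without C57BL/6J replicate 1. With the Gapdh covariate it was 2.

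Among 39 genes of xenobiotic metabolism, Ahr, the aryl hydrocarbon receptor, was higher in A/J at 10.56, 10.29 and 10.22 in A/J and 9.48, 9.10 and 9.34 in C57BL/6J (1.05, SE 0.12, adjusted p = 0.0013), with no overlap. The enzymes Sult1a1 (-0.67), Adh7 (-0.63) and Cyp3a13 (-0.60) were lower. The Sult1a1 call was lost without A/J replicate 2 or 3 or C57BL/6J replicate 2 and that of Cyp3a13 without A/J replicate 1 or 2 or C57BL/6J replicate 1, 2 or 3. Of 40 heat shock and chaperone genes, Hspb8, a small heat shock protein, was lower in A/J. It read 10.20, 10.23 and 10.42 in A/J and 11.42, 11.32 and 11.37 in C57BL/6J, a clear gap between the strains (-1.09, SE 0.10, adjusted p = 0.000126). Hspe1, a mitochondrial chaperonin, was higher by 0.53 (lost without A/J replicate 1 or 3).

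Cell cycle genes had 3 called members of 49, all lower in A/J. Pttg1, securin, which guards sister chromatids, read 10.47, 10.57 and 10.33 in A/J and 11.54, 11.54 and 11.61 in C57BL/6J (-1.11, SE 0.09, adjusted p = 0.000109), and Ccnd2, a D-type cyclin, gave -0.76 (adjusted p = 0.0101). Cdkn1a, the last of them, is an inhibitor. Without each array in turn 3 were lower. Without C57BL/6J replicate 1, 1 was also higher, and with the Gapdh covariate 2 were lower. The list's median was -0.05. Of 30 coagulation and fibrinolysis genes, Plat, the tissue plasminogen activator, read 9.27, 9.71 and 9.38 in A/J and 10.41, 10.33 and 10.37 in C57BL/6J and was lower in every A/J lung (-0.92, SE 0.12, adjusted p = 0.00215). Vwf and the platelet glycoprotein Gp1bb (-0.46) were lower as well, and the thrombin receptor F2r was higher (0.61). The Gp1bb call was lost whichever array was left out, and that of F2r without A/J replicate 1 or 3 or C57BL/6J replicate 2 or 3. The number of lower genes in this list was 2 without A/J replicate 1, 1 without each of the other 5 arrays, and 1 after median centring or with the Gapdh covariate. The number of higher ones was 2 without C57BL/6J replicate 1.

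Of 25 phospholipid genes, Plpp1, a lipid phosphate phosphatase, was lower in A/J at 10.60, 10.73 and 10.63 in A/J and 11.98, 11.53 and 11.96 in C57BL/6J (-1.17, SE 0.13, adjusted p = 0.000711). Lpcat1 and the fatty acid binding protein Fabp1 (0.71, lost without A/J replicate 1 or 3 or C57BL/6J replicate 1 or 2) were higher. In this list 5 genes were higher without C57BL/6J replicate 1. Of 20 cathepsins and inhibitors, Ctss, the Ctsc set whose call 5 of the 6 arrays could end, and Lgmn, legumain (0.54, lost without A/J replicate 1 or 2 or C57BL/6J replicate 2 or 3), were higher, and Serpina3n, a serine protease inhibitor, was lower (-0.55, lost without A/J replicate 1 or 3 or C57BL/6J replicate 3). The number of higher genes was 6 without C57BL/6J replicate 1, 1 without A/J replicate 1 or 2 or C57BL/6J replicate 2 or 3, and 0 with the Gapdh covariate. Oxidative phosphorylation had 1 called gene of 60, the subunit Cox7b (0.61, lost without A/J replicate 1, 2 or 3 or C57BL/6J replicate 2 or 3), with a median of 0.22 and 47 positive differences. In 43 of the 60 the lowest lung was C57BL/6J replicate 2, and without it the median was 0.12. Without C57BL/6J replicate 1, 4 genes were called.

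**Figure D3:**
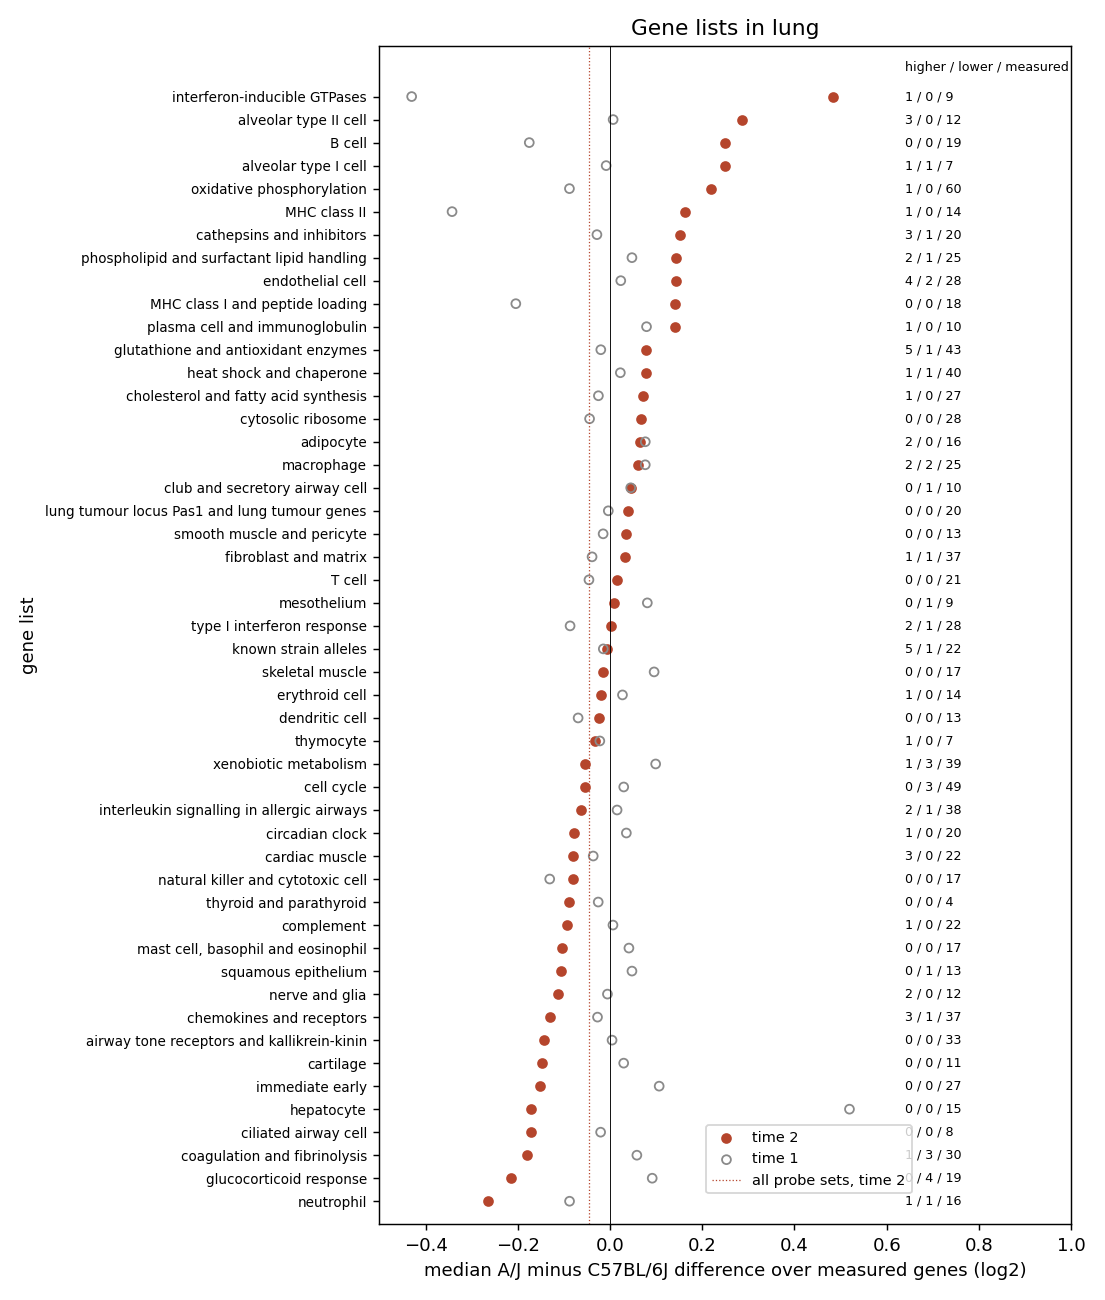
Median strain difference over the measured genes of each of 49 lists (log2, A/J minus C57BL/6J), at time 2 (filled) and at time 1 (open), with the median of all probe sets at time 2 dotted. The numbers at the right are the genes called higher in A/J, called lower and measured at time 2, as in 0, 4 and 19 for the glucocorticoid response.

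Apart from the genes with known strain alleles, described below, the remaining lists had at most 2 calls. Single genes were higher in A/J among erythroid (Hbb-b2, a beta globin, 14.35, 14.10 and 14.24 in A/J and 13.57, 13.27 and 13.45 in C57BL/6J, adjusted p = 0.00332), thymocyte (Cd1d1, 0.62), complement (Cd59a, 0.54) and circadian genes (Bhlhe40, 0.50). Of these calls, Cd1d1 was lost without A/J replicate 1 or C57BL/6J replicate 2 or 3 and Bhlhe40 without A/J replicate 1, 2 or 3 or C57BL/6J replicate 2 or 3. Beside Scd1, the adipocyte list held Thrsp, a lipogenic nuclear protein (0.56, lost without A/J replicate 3), and it had 4 higher genes without C57BL/6J replicate 1. Over all 49 lists, leaving out C57BL/6J replicate 1 raised the number of higher genes in 22 and lowered it in 0, and leaving out A/J replicate 1 raised it in 0 and lowered it in 18. None was called among 27 immediate early genes (6 at an unadjusted p below 0.05), 28 ribosomal protein genes (4), 17 mast cell, basophil and eosinophil genes (3), 15 hepatocyte genes (2), 13 dendritic cell genes (1), 11 cartilage genes (1), 4 thyroid genes (0) or 20 genes of the lung tumour locus Pas1 and of lung tumours (5). An unadjusted p below 0.05 by limma was found for 23% of all probe sets. In 16 of the 27 immediate early genes, which respond within minutes to handling and dissection, the highest lung was C57BL/6J replicate 1.

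Genes with alleles known to differ between these or other inbred strains were read as a further list. Of 22 measured, Glo1, Nnt, Ahr, Ptprc and Ifi202b were higher and Gas5 was lower in A/J. Not all of these differences recurred. Nnt was not called at time 1, and its change of 0.83 between the times was called. Ptprc gave -0.17 at time 1, and its other sets, at -0.05 and 0.02, did not pass at time 2. Hc, complement C5, which A/J mice are known to lack, read 11.26, 10.60 and 10.78 in A/J and 11.75, 11.12 and 11.38 in C57BL/6J and did not pass at time 2 (adjusted p = 0.127), though it was lower in A/J at time 1 (-0.75, adjusted p = 0.0146). Nnmt (-0.39, adjusted p = 0.0635) and Fcgr2b (-0.34, adjusted p = 0.0669) were also lower at time 1 and did not pass at time 2. Tyr and Tyrp1, pigment genes, gave -0.0043 and -0.10. These 22 genes were chosen with earlier results of the same arrays known.

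The lung comparison at time 1 used other arrays and another array run, and served to show which differences recurred. At time 1, 359 probe sets (2.89%) were called, 153 (1.23%) higher and 206 (1.66%) lower in A/J. Of the 442 called at time 2, 361 had the same sign at time 1 (81.67%, against 50.18% of all probe sets). Of the 442, 129 were called at time 1 in the same direction, which is 29.19% of the calls of time 2 and 35.93% of those of time 1, and 0 were called in the opposite direction. Of the 58 with at least 2-fold differences, 53 had the same sign and 40 were called. Among the 12 genes with the largest A/J excess, 9 were also called at time 1, with Ifi204 at 2.80, Baiap2l1 at 1.85 and Gnb1 at 1.47. Among the 12 on the C57BL/6J side 7 were, with Gas5 at -3.12, Chil3 at -1.59 and Sox11 at -1.21. Ptprc was the 1 gene of the 24 with an opposite sign at time 1 (-0.17), where it was not called.

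**Figure D4:**
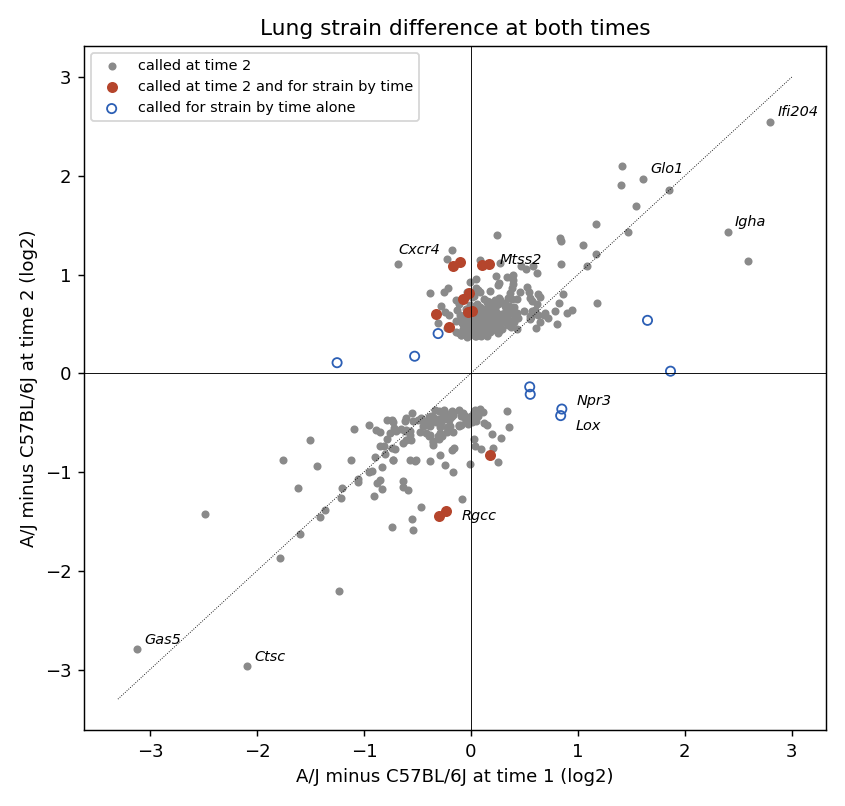
A/J minus C57BL/6J difference (log2) at time 1 (horizontal axis) and time 2 (vertical axis) of probe sets called at time 2 or for strain by time, with equality dotted. Most points called at time 2 keep their sign, such as Gas5 at -3.12 and -2.80. The open circles, called for strain by time but not at time 2, lie mostly near the horizontal axis or in opposite quadrants. A Gnb1 set, at 1.65 and 0.54, is an exception.

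The difference between the times was tested itself, as the strain difference at time 2 minus that at time 1 in the 12 lung arrays. This called 22 probe sets (0.177%), 13 (0.105%) with a higher and 9 (0.0725%) with a lower value at time 2. Of the 22, 13 were called at time 2 alone, 8 at time 1 alone and 1 at neither, and 15 had opposite signs at the times. The count was 91 without A/J replicate 3 and 40 without C57BL/6J replicate 1 of time 2. Cxcr4 had a difference of 1.13 at time 2 and -0.10 at time 1, a change of 1.23 (SE 0.18, adjusted p = 0.0147). Mtss2, an actin-binding protein, read 11.19, 11.04 and 11.05 in A/J and 10.01, 9.94 and 9.99 in C57BL/6J at time 2, and its difference was 1.11 there against 0.17 at time 1. Meox2, a homeobox factor of vessels and mesenchyme, went from -0.33 to 0.60.

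In the other direction, Npr3, the clearance receptor of natriuretic peptides, went from 0.85 at time 1 to -0.36 at time 2 (change -1.21, SE 0.15). Its other sets changed by -0.83 and -0.45, which did not pass. Lox, lysyl oxidase, which crosslinks collagen and elastin, went from 0.84 to -0.43 (change -1.27, SE 0.18), while its other set changed by 0.03 and did not pass. F3, tissue factor, went from 0.55 to -0.21. Rgcc was lower in A/J at time 2 and not called at time 1 (-0.24; change -1.16, adjusted p = 0.0353). Nnt gave -0.02 at time 1, a change of 0.83 to time 2 that was called. H2-Ab1, picked after its values were seen, went from -1.25 to 0.11 (change 1.36, adjusted p = 0.0147). The clock gene Per2, of the circadian list, went from 0.55 to -0.14, and a Gnb1 set from 1.65 to 0.54, while the Gnb1 set described above changed by -0.04. All 9 interferon-inducible GTPases and all 19 B cell genes had a more positive difference at time 2 than at time 1. Over all probe sets the median change was -0.05. At time 2 all 9 GTPases were highest in A/J replicate 2, and 16 of the 19 B cell genes in A/J replicate 1. Whether these counts rest on single lungs was not tested. None of the changes passed, with adjusted p from 0.111 to 0.314 for GTPases and at least 0.126 for B cell genes.

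Liver, heart and spleen of the same time and array run gave the last comparison, which asks where the lung difference departs from that in the other tissues. The lung difference departed from the mean of the other 3 in 958 probe sets (7.71%), 545 (4.39%) upward and 413 (3.32%) downward. The count was 336 without A/J replicate 1, 1490 without C57BL/6J replicate 1 and 330 without C57BL/6J replicate 2. The Gapdh value lay between 1.05 and 1.96 in lung and between 0.08 and 0.90 in the other tissues. This test was not run with the Gapdh covariate. Of the 442 probe sets called in lung at time 2, 240 were among them. Both tests use the same lung arrays, so part of this overlap follows from the choice of probe sets. Ifi204 differed by 2.55 in lung and by -0.18, 0.04 and -0.41 in liver, heart and spleen, a departure of 2.73 (SE 0.16, adjusted p = 2.01e-10). Chil3 gave 0.11, -0.16 and -0.34 in the other tissues (departure -1.50, adjusted p = 0.000204), and Rgcc -0.03, -0.45 and 0.52 (departure -1.41, adjusted p = 1.61e-06). Igha departed by 1.44 and Sox11 by -1.24. Baiap2l1 was higher in A/J heart as well (1.74) but gave -0.58 in liver.

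Sphk1, which makes the lipid signal sphingosine 1-phosphate, read 8.63, 8.67 and 8.67 in A/J and 9.76, 9.70 and 9.75 in C57BL/6J in lung. The strains did not overlap (-1.08, SE 0.08, adjusted p = 7.39e-05), and the lung departed from the other tissues by -1.43 (adjusted p = 2.08e-07). Bex4 departed by -0.97, from -0.67 in lung. Apcs, serum amyloid P, and Ank1, an erythroid ankyrin, departed while their lung difference was small: Apcs gave -0.08 in lung and 2.28 in liver, and Ank1 -0.09 in lung and 2.03 in spleen. Some large lung differences had the same direction in every tissue. Glo1 gave 1.05, 1.65 and 2.28 in liver, heart and spleen (departure 0.31, adjusted p = 0.135), and Gas5 gave -3.51, -2.83 and -3.52. Zbtb16 gave -1.67, -1.69 and -1.25. Snhg6 was lower in A/J by more in the other tissues (-2.14, -2.21 and -2.09; departure 0.76, adjusted p = 0.00148). Of the 12 genes with the largest A/J excess, 6 had the same sign in all 4 tissues, as had 7 of the 12 on the C57BL/6J side.

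**Figure D5:**
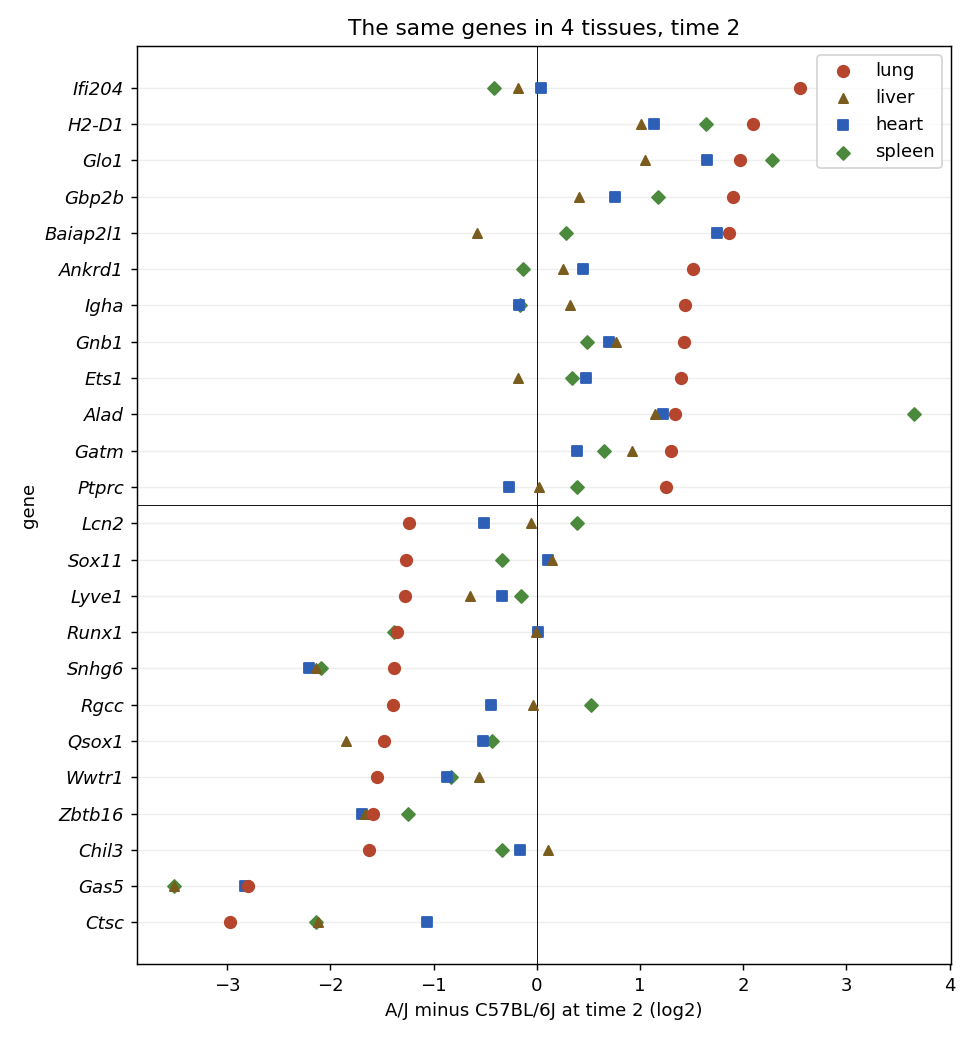
A/J minus C57BL/6J difference (log2, horizontal axis) in lung, liver, heart and spleen at time 2 for the 24 genes with the largest lung differences. Each point is the difference of 2 means of 3 arrays, and the tissues lie together for Glo1 and apart for Ifi204, whose lung value of 2.55 stands beside values between -0.41 and 0.04.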

How the data were processed

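The authors' deposited values are on a log2 scale, 1 value per probe set and array, made by a method not given in the sources used here, and were used as deposited. Per the labels' protocols, targets came from about 20 micrograms of total RNA per sample. Of 12488 probe sets, 66 controls were left out. The platform's probe table gave 1 symbol for 10833 (8251 genes), several for 396, and did not list 1193. Precision is limited by the number of arrays.

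Strain differences (A/J minus C57BL/6J) were tested with lmFit and eBayes of limma 3.58.1 in R 4.3.3 on the 6 lung arrays of time 2, with Benjamini-Hochberg adjustment over 12422 probe sets and a limit of 0.05. The lungs of time 1, strain by time (12 arrays) and lung against liver, heart and spleen (24 arrays) were fitted likewise. All arrays of time 2 share 1 array run by their scan file names, and time 1 lungs lie in another. Calculations were tested on simulated data.

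The rule named the 12 genes with the largest called difference per direction with 1 symbol and no overlap, up to 4 genes of smallest p per list, the genes with known alleles, 6 genes for strain by time and 8 for lung against other tissues, with their other probe sets. Dusp1, Gstt1, H2-Ab1, H2-Eb1, Iigp1, Nr3c1, Per1, Prdx2, Sgk1 and Tsc22d3 were named after their values were seen. The members and the 49 lists were chosen with earlier results of these data known. Alternatives were leaving out each array, a replicate block, other scalings, a filter on dim probe sets, other estimates of spread, a stricter limit and, added after seeing the data, the Gapdh covariate and probe sets with plain names alone. Promoter windows came from RefSeq (GRCm38.p6).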

Additional observations from a re-analysis of the deposited data

Results flagged for a closer look

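The strain difference in lung departed between the times for 12 probe sets of named or listed genes, by a test of the difference itself (time 2 minus time 1, log2, limma adjusted p below 0.05). The change was 1.23 for Cxcr4, 0.94 for Mtss2, 0.93 for Meox2, 0.83 for Nnt and 0.70 for Klra3, a receptor of natural killer cells whose difference was 0.17 at time 2 and -0.53 at time 1. It was -1.27 for Lox, -1.21 for Npr3, -1.16 for Rgcc and -0.77 for F3. Of sets picked after their values were seen, H2-Ab1 changed by 1.36, Per2 by -0.69 and a Gnb1 set by -1.12. Each time has its own array run, which both strains share, and the run and the time cannot be told apart.

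The lung difference departed from the mean of liver, heart and spleen at time 2 in the 8 genes with the smallest p, again by a test of the difference. The departure was 2.73 for Ifi204 and 1.38 for Baiap2l1. In the other direction it was -1.43 for Sphk1, -1.41 for Rgcc, -1.24 for Sox11, -1.06 for Apcs, -1.004 for Ank1 and -0.97 for Bex4. For Apcs and Ank1 the lung difference was -0.08 and -0.09, so the departure lies in the other tissues.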

How the results depend on the processing

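The count of 442 lung probe sets at time 2 ranged from 190 to 780 when 1 of its 6 arrays was left out. It was 1270 with the spread of the 12 lung arrays, 975 with that of the 24 arrays of time 2, 123 at a limit of 0.01, and 102 with the Gapdh covariate, which was added after seeing the data. Quantile normalization, median centring, the filter on dim probe sets, an intensity trend and plain probe set names gave 391, 419, 400, 453 and 417. The count of 359 at time 1 ranged from 167 to 394 without 1 of its 6 arrays. The 22 probe sets for strain by time ranged from 16 to 91 without 1 of the 6 lung arrays of time 2 and were 274 with the spread of all 48 arrays. The 958 for lung against other tissues ranged from 330 to 1490 without 1 of those 6 lung arrays. No array of lung at time 1 or of another tissue was left out of these 2 tests. With the replicate number as a block 887 probe sets passed in lung at time 2. Same-numbered lungs correlated at 0.36, 0.10 and 0.04 in their deviations from the group means, so that the number was not taken to pair the animals.

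Of 88 named probe sets called at time 2, 37 kept their direction and call under every alternative run, and none of the 88 reversed. Of the 24 genes with the largest differences, 20 did, the exceptions being Ptprc, Zbtb16, Lyve1 and Lcn2. Reading each gene by the mean of its probe sets moved the count of called genes by over 1.5 times in 8 of 49 lists. Values near the highest of the array, such as those of Sftpc and Ager, and dim ones, such as those of Ifi202b, limit what differences could be read.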
